A study of Danio rerio with 14 samples.

Results

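jac10 and jac11 are neighbouring zebrafish genes of the jacalin-like lectin family. They were followed over every array of a study of larvae exposed to the effluent of a wastewater treatment plant. Both genes were chosen by their measured log2 signal, which was low in effluent-exposed larvae in an earlier look at these data. Their differences between groups are therefore given as a description, without a test. All probes whose accession on the array belongs to either gene were taken, which gave 1 probe for jac10 (A_15_P553552) and 3 probes for jac11, 4 of the 43603 probes on the array in all. They are 2 of 12787 named genes with a usable probe. Each of the 4 probes passed the filter on dim signal. The jac11 probes are numbered by their mean signal: probe 1 (A_15_P759531, the highest, which stands for the gene where 1 value is needed), probe 2 (A_15_P663626) and probe 3 (A_15_P489547).

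Wild-type AB larvae were grown in groups of 25 to 30 per well, in 4 mL of E3 saline at 28 °C, with fresh medium every 24 h. Exposure began 3 h after fertilisation and the whole larvae of a well were collected at 5 days as 1 pooled replicate. The medium carried secondary effluent of a Tucson treatment plant at its original strength (1x, 5 wells), at 0.5x (5 wells) or not at all (control, 4 wells). DMSO, the solvent that the control labels name, was at 0.05% in the controls and at most 0.05% in the effluent media. From each well 200 ng of RNA was hybridised to a 1-colour array. The sources used here do not say whether wells shared a clutch, so a p-value below measures the spread between wells. Larvae were taken whole, so fewer cells of a type and less RNA per cell cannot be told apart.

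Lectins are proteins that bind sugars. The jacalin domain was first known from a plant seed lectin, and in mammals the zymogen granule protein ZG16, made by gut goblet cells and the exocrine pancreas, has a jacalin-like fold. In zebrafish several genes of this family lie in a row. One of them, aep1 (also listed as dln1 and jac5), encodes an aerolysin-like protein, in which a jacalin domain that binds mannose-type sugars is joined to a pore-forming part. What jac10 and jac11 themselves do in the larva is not stated here, because no source used here gives it.

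The gene table of the GRCz12tu assembly, used for names and gene order only, places the family in 1 row. The jac, aep1 and ntrnl genes and the other named genes with a matched probe are listed here. Their order is f13a1b (a coagulation factor XIII subunit), jac7, zgc:172143, aep1, jac10, jac11, jac1, ntrnl2, jac4, ntrnl4, jac6, ntrnl3, jac9, jac8, jac3 and tex261. Of these, f13a1b, zgc:172143 and tex261 were not counted in the family. Further genes of the table lie among them and are not listed. No other gene of the table lies between jac10 and jac11. The array design names the build danRer7 (Zv9), so no coordinate of the newer assembly is printed. jac1, jac3, jac4 and the 3 ntrnl genes had no matched probe. Family genes in such a row are related in sequence, and whether a probe of one also binds the RNA of another was not tested.

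The 14 arrays had a median processed signal of 132 to 255, and 85.4% to 90.9% of probes were well above background on an array. Values below are the log2 processed signal less the 75th percentile of the same array, so 0 marks a probe at that percentile. Control replicates 1 and 2 stood apart on the first principal component (38.1% of the variance), at -120 and -80.5, while the other 12 arrays lay between -17.5 and 44.4. The differences of jac10 and jac11 from control, and those of the family and of the lectin, mucosal and tissue lists, are therefore also given without those 2 arrays. Arrays lay on 4 slides scanned on 2 days. Day 1 held slides 1 and 2, with control replicates 1 and 2, 1x replicates 1 to 3 and 0.5x replicate 1. Of 14 marker genes that define larval tissues, 12 were well above background on all 14 arrays. The goblet cell mucin muc2.1 had no probe, and the hatching gland enzyme he1.1 passed on 4 arrays.

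jac10 had a graded pattern: it was highest in the controls, lower at 0.5x and lowest at 1x. Its level in the 4 controls was -1.68, -1.85, -1.37 and -1.42. At 0.5x the 5 arrays read -3.37, -3.42, -3.09, -3.67 and -2.76. At 1x they read -3.74, -3.97, -4.70, -4.23 and -4.12. No array of any group crossed into another group, although the lowest 0.5x array and the highest 1x array lay close to each other. The probe was well above background on all 14 arrays, with a processed signal of 200.5 to 328.6 in controls, 69.7 to 131.9 at 0.5x and 52.0 to 87.3 at 1x.

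**Figure D1:**
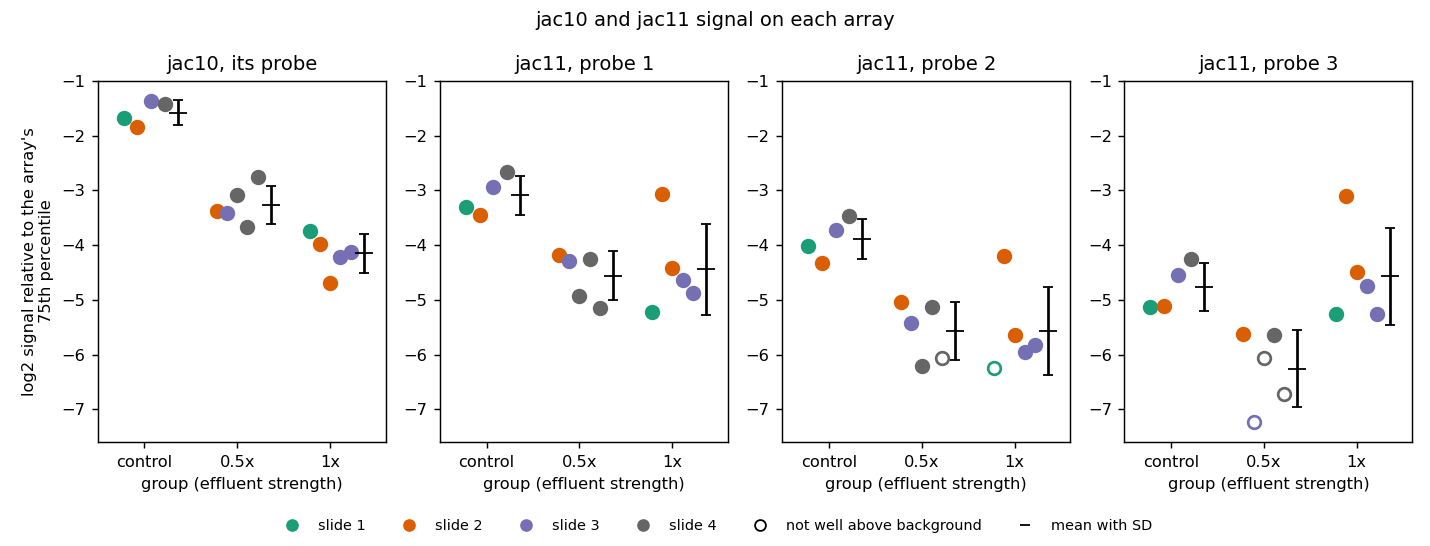
Log2 signal relative to the 75th percentile of the array (vertical axis) for the jac10 probe and the 3 jac11 probes, by group (effluent strength) and coloured by slide. Each point is 1 array, open where the probe was not well above background, and bars give the mean with its SD. The jac10 arrays fall into 3 separate bands, from -1.37 to -1.85 in controls to -3.74 to -4.70 at 1x, while 1 of the 5 arrays at 1x stands high for every jac11 probe.

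The mean jac10 level was -1.58 ± 0.23 (SD, n = 4) in controls, -3.26 ± 0.35 (SD, n = 5) at 0.5x and -4.15 ± 0.36 (SD, n = 5) at 1x. The log2 difference from control was -2.57 ± 0.20 (SE) at 1x, which is 5.95-fold lower. At 0.5x the log2 difference from control was -1.68 ± 0.20, or 3.21-fold lower. Between the concentrations, 1x lay 1.85-fold below 0.5x (log2 difference -0.89 ± 0.19). All 3 differences exceeded the SD within each group, which only describes their size, since jac10 was chosen for its low signal in effluent.

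These differences were large for this array, but both genes were chosen for their low signal in these data. Their low ranks against control, for jac10 here and for jac11 below, follow from that choice and only describe size. Ranked from the lowest, the jac10 log2 difference was number 3 of 12787 named genes at 1x against control, number 2 at 0.5x against control and number 90 at 1x against 0.5x. Groups that do not overlap were common by themselves: among the 38803 kept probes, 13.8% lay wholly below control at 1x, 6.88% at 0.5x, and 4.4% lay wholly below 0.5x at 1x. With the limma test at an adjusted p of 0.05, 28.7% of kept probes were called at 1x against control, 9.25% at 0.5x against control and 4.07% at 1x against 0.5x. Both effluent groups were set against the same 4 controls, so the first 2 comparisons are not independent of each other.

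The low jac10 signal was present within slides and scan days. At 1x the log2 difference from the control of the same slide was -2.06 on slide 1, -2.49 on slide 2 and -2.80 on slide 3. At 0.5x it was -1.52 on slide 2, -2.05 on slide 3 and -1.76 on slide 4. 1x lay below 0.5x on both slides that held the 2 groups, by -0.97 on slide 2 and -0.75 on slide 3. Each slide held 1 control, so these values have no spread of their own. Without control replicates 1 and 2 the jac10 log2 difference from control was -2.76 at 1x and -1.87 at 0.5x.

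jac11 was also low in effluent by its probes 1 and 2, with no step between the concentrations beyond the error, while its probe 3 was low at 0.5x and within its error of control at 1x. Probe 1 read -3.30, -3.45, -2.94 and -2.66 in the 4 controls. At 0.5x it read -4.19, -4.29, -4.92, -4.25 and -5.15, all below the lowest control. At 1x it read -5.23, -3.06, -4.43, -4.63 and -4.88, where 4 arrays lay below every control and 1x replicate 2 lay among the controls.

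The mean of jac11 probe 1 was -3.09 ± 0.36 (SD, n = 4) in controls, -4.56 ± 0.44 (SD, n = 5) at 0.5x and -4.45 ± 0.83 (SD, n = 5) at 1x. Its log2 difference from control was -1.47 ± 0.36 (SE) at 0.5x, a 2.78-fold lower signal. At 1x the log2 difference from control was -1.36 ± 0.36, 2.56-fold lower. The concentrations differed by 0.12 ± 0.34 on the log2 scale, which is within the error, and the sign of that difference changed with the processing. In the ranking from the lowest, jac11 was number 29 of the 12787 genes at 1x against control, number 12 at 0.5x against control and number 9064 at 1x against 0.5x.

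1 well had a large part in the 1x value of jac11. Without 1x replicate 2 the log2 difference from control was -1.70, and without 1x replicate 1, the lowest array, it was -1.16. Within slides the 1x value was -1.93 on slide 1, -0.29 on slide 2 (the slide of 1x replicate 2) and -1.81 on slide 3. On scan day 1 it was -0.86 and on day 2 -1.96. At 0.5x the jac11 difference also varied between slides, from -0.74 on slide 2 to -1.35 on slide 3 and -2.12 on slide 4. Without control replicates 1 and 2 it was -1.65 at 1x and -1.76 at 0.5x.

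The second jac11 probe gave much the same picture as the first. Probe 2 read -4.02, -4.33, -3.73 and -3.47 in controls, and -5.04, -5.42, -6.21, -5.14 and -6.06 at 0.5x. At 1x it read -6.25, -4.20, -5.64, -5.96 and -5.84, with 1x replicate 2 again the high array and inside the control range. Its log2 difference from control was -1.69 ± 0.37 at 1x and -1.69 ± 0.37 at 0.5x, and the concentrations differed by -0.01 ± 0.34. Probe 2 was not well above background on 1x replicate 1 and on 0.5x replicate 5, so the signal of those arrays is near the lower limit of the measurement.

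Probe 3 departed from the other jac11 probes at 1x. It read -5.13, -5.12, -4.55 and -4.25 in controls, and -5.63, -7.23, -6.06, -5.64 and -6.73 at 0.5x, all below the lowest control. At 1x it read -5.26, -3.11, -4.50, -4.75 and -5.25, spread around the control values. The log2 difference from control was -1.49 ± 0.43 at 0.5x and 0.19 ± 0.43 at 1x, and 1x lay above 0.5x by 1.68 ± 0.40 with no overlap of arrays. Among kept probes, 8.27% had no overlap between these groups in either direction. The size of that step depended on the processing: it was 0.31 ± 0.16 with normexp, another background correction, and 1.18 in the deposited matrix. The sign at 1x against control was not fixed: it was -0.26 with normexp, -0.06 in the deposited matrix, 0.83 on scan day 1 and -0.60 on scan day 2. Probe 3 was well above background on all controls and all 1x arrays, but at 0.5x only on replicates 1 and 4, so the distance to 0.5x has no exact size.

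The change between the jac11 probes was seen within each array. The log2 signal of probe 3 less that of probe 1 was -1.83, -1.66, -1.61 and -1.59 in controls. At 1x it was -0.03, -0.05, -0.07, -0.11 and -0.37, and at 0.5x -1.44, -2.95, -1.14, -1.38 and -1.57. Thus every 1x array lay above every array of the other groups, 1x replicate 2 included. The mean was -1.68 ± 0.11 (SD, n = 4) in controls, -0.13 ± 0.14 (SD, n = 5) at 1x and -1.70 ± 0.72 (SD, n = 5) at 0.5x. A level of one probe cannot be set against that of another, and a moving difference shows only that the probes changed unequally.

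**Figure D2:**
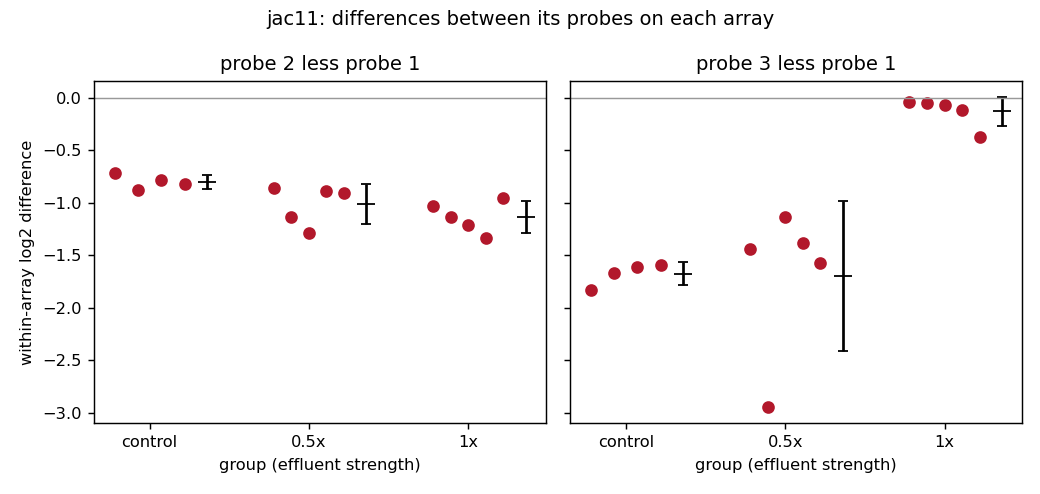
Within-array log2 difference of jac11 probe 2 less probe 1 (left) and of probe 3 less probe 1 (right), by group. Each point is 1 array and bars give the mean with its SD. For probe 3 the 5 arrays at 1x lie between -0.37 and -0.03, above all other arrays. For probe 2 the group means differ less, from -1.13 to -0.80, with all 1x arrays below all controls.

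For probe 2 less probe 1 the shift was smaller and in the other direction: all 1x arrays (-1.33 to -0.96) lay below all controls (-0.88 to -0.72), with means of -0.80 ± 0.07 (SD, n = 4) in controls, -1.01 ± 0.19 (SD, n = 5) at 0.5x and -1.13 ± 0.15 (SD, n = 5) at 1x. Over the 7460 named genes with at least 2 kept probes, 18633 probe pairs had a value on every array, and 19 others were left out. The within-array difference did not overlap between 1x and control in 10.9% of them and between 1x and 0.5x in 3.92%. A mean shift at least as large as that of jac11 probe 3 less probe 1 was found in 87 pairs (0.467%) at 1x against control and in 33 pairs (0.177%) at 1x against 0.5x. The jac11 pair was singled out after its values were seen. With the normexp background correction the same difference was -0.73 ± 0.19 (SD, n = 4) in controls, -0.47 ± 0.27 (SD, n = 5) at 0.5x and -0.15 ± 0.06 (SD, n = 5) at 1x. The shift was smaller, 1x lay above all controls, and the 1x arrays (-0.22 to -0.06) overlapped those at 0.5x (-0.78 to -0.19). Which transcripts or related genes probe 3 binds was not tested.

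Beside jac10 and jac11, the other genes of the row were tested. Of the 5 others with a kept probe, jac7 and aep1 fell at 1x against control, none rose, and jac6, jac8 and jac9 did not pass the test. That is 2 lower and 0 higher of 5, where 16.2% of all named genes were called lower and 10.3% higher. At 0.5x against control limma called 0 of 5 (1 at an unadjusted p under 0.05), where 4.29% of named genes were called lower and 4.38% higher. At 1x against 0.5x it called 0 of 5 (0 at an unadjusted p under 0.05), against 4.32% of named genes.

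aep1, the aerolysin-like gene directly before jac10 in the row, had a brightest probe that read 3.63, 3.46, 3.51 and 3.50 in controls. At 1x that probe read between 2.83 and 3.18 on the 5 arrays, all below the controls. The log2 difference was -0.48 ± 0.11 (SE, adjusted p = 0.00685), much smaller than that of jac10. A second aep1 probe fell further, by 1.40 ± 0.30 on the log2 scale (adjusted p = 0.0057), with 1x replicate 2 the lowest array at 0.37, the reverse of its place for jac11. The third probe gave -0.50 ± 0.36 (adjusted p = 0.312). At 0.5x the first aep1 probe gave -0.27 (adjusted p = 0.108). Its call at 1x was lost within scan day 2 (adjusted p = 0.112). Without control replicates 1 and 2 the first aep1 probe gave -0.46 (adjusted p = 0.0394) and the second -1.54 (adjusted p = 0.0296).

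jac7 lies before aep1 and zgc:172143 in the row. It read -1.27, -1.60, -1.09 and -1.22 in controls, and -1.39, -2.02, -1.97, -2.22 and -2.11 at 1x, where replicate 1 lay among the controls. The log2 difference was -0.64 ± 0.20 (SE, adjusted p = 0.0278), and a second probe gave -0.49 ± 0.15 (adjusted p = 0.024). The call was close to the threshold. It was lost without control replicate 1 (adjusted p = 0.0652), control replicate 3 (0.0592), 1x replicate 2 (0.0559), 1x replicate 3 (0.0569) or 1x replicate 4 (0.0605). It was also lost without control replicates 1 and 2 together (0.0582), within scan day 1 (0.244) and in the deposited matrix (0.0569).

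jac6, jac8 and jac9, on the other side of jac10 and jac11, had positive log2 differences at 1x against control that did not pass the test. They were 0.61 ± 0.29 for jac6 (adjusted p = 0.122), 0.64 ± 0.31 for jac8 (adjusted p = 0.126) and 0.65 ± 0.30 for jac9 (adjusted p = 0.115). Their controls were widely spread: jac9 read -4.30, -3.98, -3.20 and -2.41 in controls, and -3.12, -2.33, -3.27, -2.76 and -2.61 at 1x. Control replicates 1 and 2 were the low controls for all 3 genes and control replicate 4 the highest. Without control replicate 4 all 3 were called higher, with an adjusted p of 0.0138 for jac6, 0.0126 for jac8 and 0.00869 for jac9. With the slide as a block jac8 (adjusted p = 0.0491) and jac9 (adjusted p = 0.0442) were called higher. Within scan day 1, which holds control replicates 1 and 2, all 3 were called higher, with an adjusted p of 0.0112 for jac6, 0.0296 for jac8 and 0.02 for jac9. Without those 2 controls the log2 differences were -0.06 for jac6 (adjusted p = 0.875), -0.02 for jac8 (adjusted p = 0.965) and -0.01 for jac9 (adjusted p = 0.972). 1x replicate 2, the high 1x array for jac11, was also the highest 1x array for jac6 (-2.98), jac8 (-2.20) and jac9 (-2.33).

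**Figure D3:**
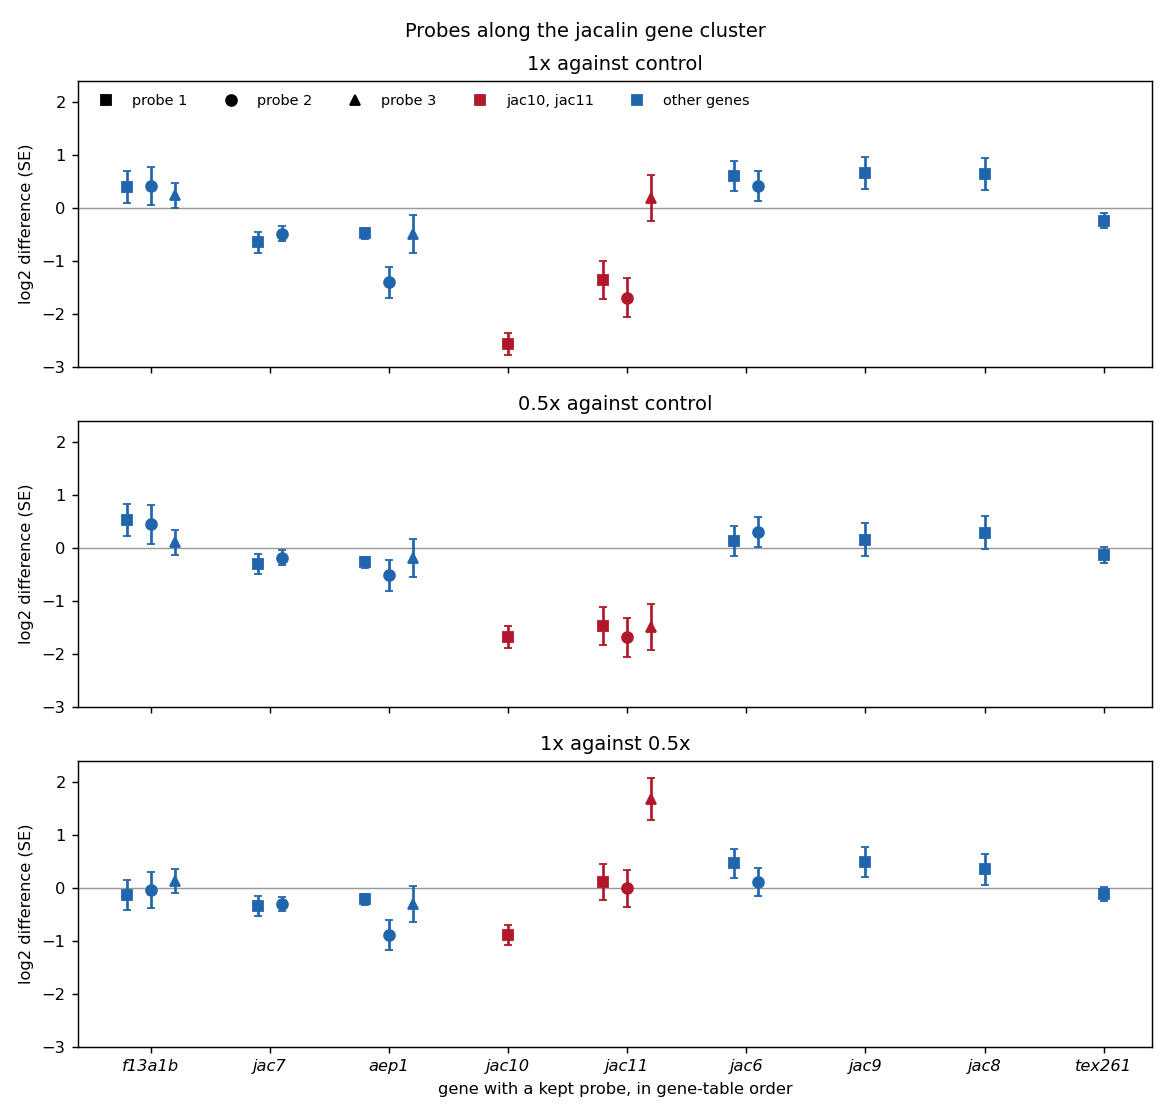
Log2 difference with its SE for every kept probe of the jacalin row and its 2 flanking genes, in the order of the gene table, with 1x against control at the top, 0.5x against control in the middle and the concentrations against each other at the bottom. Red marks jac10 and jac11, blue the other genes, and the symbol gives the probe number. jac10 is the lowest gene of the row at 1x against control, at -2.57, and jac11 probe 3 is the one jac11 probe near 0 there, at 0.19.

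Beyond the family, none of the genes flanking jac10 and jac11 passed the test on all arrays. The nearest named genes with a kept probe were f13a1b, cxcl8b.3 and cxcl19 (both chemokine genes) before the row and tex261 and vax2 (an eye transcription factor) after it. Between jac10 and these genes the gene table lists 4 genes (f13a1b), 21 (cxcl8b.3), 22 (cxcl19), 16 (tex261) and 19 (vax2), row genes included. limma called 0 of these 5 in each comparison, with 0 at an unadjusted p under 0.05 at 1x, 1 at 0.5x and 1 between the concentrations. Their log2 differences at 1x against control ran from -0.24 ± 0.15 for tex261 to 0.61 ± 0.31 for cxcl19. f13a1b gave 0.39 ± 0.31 (adjusted p = 0.347). Its value was 1.07 within scan day 1 (adjusted p = 0.0136) and -0.35 without control replicates 1 and 2 (adjusted p = 0.21). cxcl8b.3 was called within scan day 1, at 0.35 (adjusted p = 0.0415).

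jac10 and jac11 did not have the same profile over the arrays. Each gene's 14 values were centred on their own mean and compared with those of the other 12786 named genes by the mean absolute difference. The distance between jac10 and jac11 was 0.678, beside a mean absolute deviation of 0.918 for jac10 and 0.726 for jac11. By that distance 347 genes were nearer to jac10 than jac11 was, and 3490 genes were nearer to jac11 than jac10 was. A gene with no change at all would lie 0.726 from jac11, so a nearer gene need not follow its profile closely.

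The 5 genes nearest to jac10 were rela (the p65 subunit of NF-κB) at a distance of 0.407, ccdc40 (needed for the beating of cilia) at 0.418, zbtb12.1 (a zinc finger gene) at 0.437, klhl5 (a kelch-family gene) at 0.445 and slc25a37 (mitoferrin, which carries iron into mitochondria) at 0.453. They were picked for likeness to jac10 over these same arrays, so a shared order is largely given by the choice. By the probe that stands for each gene, all 5 had the graded order of jac10. Their log2 differences from control at 1x ran from -1.57 for slc25a37 to -1.75 for ccdc40, and at 0.5x from -0.63 for slc25a37 to -1.24 for klhl5, all smaller than those of jac10. Other probes of these genes did not always agree. A second rela probe gave -0.51 ± 0.22 at 1x against -1.66 ± 0.18 for the first, and the 4 other slc25a37 probes gave -0.10, -0.09, 0.33 and 0.14. Another ccdc40 probe gave -1.05 at 1x and -0.85 at 0.5x, and a further one -0.54 and -0.59, without the graded order.

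The 5 genes nearest to jac11 were b2m (beta-2-microglobulin, the light chain of MHC class I) at 0.320, si:dkey-58f10.11 at 0.347, xaf1 (induced by interferon in mammals) at 0.375, parp14rs1 (related to the ADP-ribosyltransferase gene PARP14) at 0.394 and tapbp.2 (related to tapasin, which loads peptides onto MHC class I) at 0.395. At 1x against 0.5x their log2 differences ran from -0.52 for tapbp.2 to 0.01 for xaf1, although another probe of parp14rs1 gave -0.79 ± 0.24. Against control at 1x the log2 differences were -0.71 ± 0.32 for xaf1, -0.80 ± 0.27 for parp14rs1, -1.32 ± 0.28 for b2m, -1.44 ± 0.37 for si:dkey-58f10.11 and -1.74 ± 0.30 for tapbp.2. The other probes of b2m gave -1.53 and -1.12 there, those of tapbp.2 -0.58 and -0.50, those of parp14rs1 -1.17 and -0.79, and that of xaf1 -0.48. 1x replicate 1 was the lowest and 1x replicate 2 the highest 1x array for jac11, and these 5 genes also had a higher value on 1x replicate 2 than on 1x replicate 1. These genes were chosen for their likeness, which is not evidence of any shared function.

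**Figure D4:**
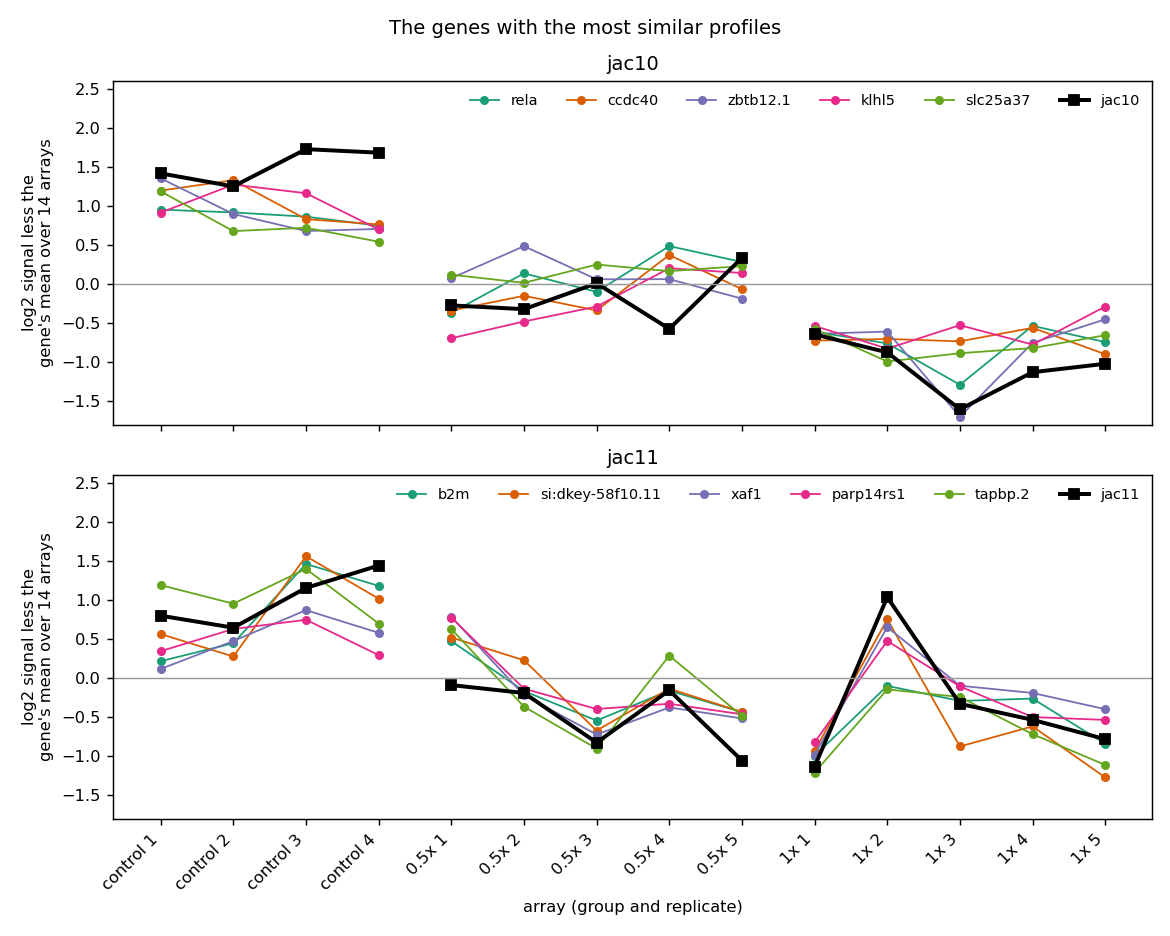
Log2 signal less the gene's own mean over 14 arrays (vertical axis) for each array (horizontal axis), for jac10 (upper panel) and jac11 (lower panel) in black and the 5 named genes nearest to each in colour. The jac10 panel steps down from control over 0.5x to 1x, and the jac11 panel shows 1x replicate 2 above the other 1x arrays.

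Other sugar-binding and mucosal genes were measured beside jac10 and jac11. Of 20 other lectins with a kept probe, 3 rose and 1 fell at 1x against control, where 10.3% of all named genes were called higher and 16.2% lower. limma called 0 of them at 0.5x against control (4 at an unadjusted p under 0.05) and 0 at 1x against 0.5x (3 at an unadjusted p under 0.05). mbl2, a mannose-binding lectin of the complement system, was higher by 1.15 ± 0.30 (log2; adjusted p = 0.014), and hbl4, another mannose-binding lectin gene, by 1.26 ± 0.33 (adjusted p = 0.0149). colec12, a scavenger receptor with a lectin domain, rose by 0.37 ± 0.11 (adjusted p = 0.0249), while the galectin-like gene lgalsla fell by 0.80 ± 0.29 (adjusted p = 0.0493). The median log2 difference of the 20 lectins was 0.13 at 1x and 0.21 at 0.5x, beside -0.05 and -0.04 for all named genes. Control replicates 1 and 2 had the lowest means over this list, -0.34 and -0.30. Without them 1 lectin was called higher and 1 lower at 1x, hbl4 gave 0.42 (adjusted p = 0.0453), and mbl2 gave 0.38 (adjusted p = 0.111), colec12 0.18 (0.215) and lgalsla -0.18 (0.593). In that fit 5.84% of named genes were called higher and 5.54% lower at 1x.

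Of 20 mucosal defence genes, 1 rose and 2 fell at 1x against control, no larger a share than that of all named genes. plac8.1 rose by 1.04 ± 0.29 (adjusted p = 0.0187). acod1, which makes itaconate in activated macrophages, fell by 0.93 ± 0.26 (adjusted p = 0.0192), and nos2b, an inducible nitric oxide synthase, fell by 0.75 ± 0.22 (adjusted p = 0.0213). These 3 calls were lost without control replicates 1 and 2 (adjusted p = 0.231, 0.173 and 0.285), where limma called 0 higher and 1 lower at 1x. At 0.5x that fit called 1 higher and 1 lower (9 at an unadjusted p under 0.05). In it 5.84% of named genes were called higher and 5.54% lower at 1x, and 1.18% and 0.571% at 0.5x. Against all 4 controls 1 rose and 2 fell at 0.5x, where 4.38% of named genes were called higher and 4.29% lower. The calls at 0.5x held plac8.1 (1.67, adjusted p = 0.00446) and acod1 (-1.49, adjusted p = 0.00487). They did not hold nos2b (-0.56, adjusted p = 0.103), so the other gene that fell was a different one. At 1x against 0.5x 1 rose and none fell, where 4.32% of named genes were called. The mean over this list was highest on 1x replicate 3 (0.75) and was 0.26 on 1x replicate 2, the high 1x array of jac11.

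Marker lists of gut and pancreas, tissues that could carry lectins, depended on which controls were used. Against all 4 controls, 4 of 18 intestinal enterocyte markers rose at 1x and 6 at 0.5x, and none fell. Over all named genes 10.3% were called higher and 16.2% lower at 1x, and 4.38% and 4.29% at 0.5x. The mean over the enterocyte list was -1.22 and -0.92 on control replicates 1 and 2, and 0.17 and 0.23 on control replicates 3 and 4, above all 1x arrays (-0.06 to 0.15). Without control replicates 1 and 2, 0 enterocyte markers were called higher and 2 lower at 1x, and 0 higher and 1 lower at 0.5x. In that fit 5.84% of named genes were called higher and 5.54% lower at 1x, and 1.18% and 0.571% at 0.5x.

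The exocrine pancreas list was split further by the controls. Against all 4 controls limma called 0 of its 15 markers at 1x (0 at an unadjusted p under 0.05) and 0 at 0.5x (4 at an unadjusted p under 0.05), and it called 0 at 1x against 0.5x (1 at an unadjusted p under 0.05). The mean over the list was -2.46 and -1.69 on control replicates 1 and 2 and 0.69 and 1.16 on control replicates 3 and 4, while the arrays ran from 0.34 to 0.87 at 0.5x and from -0.41 to 0.32 at 1x. Without control replicates 1 and 2, 12 of the 15 markers were called lower at 1x, with a median log2 difference of -0.97, and 0 of 15 at 0.5x (2 at an unadjusted p under 0.05). There 5.84% of named genes were called higher and 5.54% lower at 1x, and 1.18% and 0.571% at 0.5x. That setting keeps only control replicates 3 and 4, both of scan day 2, while 1x replicates 1 to 3 were of day 1. Group and scan day are thus partly mixed in these calls. Without control replicates 1 and 2, jac10 and jac11 probe 1 were below control at 1x and at 0.5x. The median log2 difference of the pancreas list at 0.5x there was -0.37. jac11 probe 3 gave -0.17 ± 0.55 (SE) at 1x there. On control replicates 1 and 2, where the pancreas list was lowest, jac10 read -1.68 and -1.85 and jac11 probe 1 read -3.30 and -3.45. On control replicates 3 and 4 jac10 read -1.37 and -1.42 and jac11 probe 1 read -2.94 and -2.66. Whether pancreas content has a part in these values was not tested.

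Of 6 markers of goblet cells, the mucus cells of the gut and skin, 2 rose at 1x and 2 at 0.5x against control, and none fell. Over all named genes 10.3% were called higher and 16.2% lower at 1x, and 4.38% and 4.29% at 0.5x. At 1x agr2, the defining goblet marker with a probe, rose by 1.06 ± 0.17 in log2 signal (adjusted p = 0.00129), and by 0.70 ± 0.14 without control replicates 1 and 2 (adjusted p = 0.0101). Without those controls 1 goblet marker was called higher at 1x and 0 at 0.5x (2 at an unadjusted p under 0.05). In that fit 5.84% of named genes were called higher at 1x and 1.18% at 0.5x. The part of these tissues in the jac10 and jac11 values was not tested.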

How the data were processed

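The scanner output of 14 arrays was used. Agilent Feature Extraction 10.7, which the submitters' processing notes name, gives a processed signal per spot. This deposited intensity is on a linear scale, with background and spatial trends already removed and arrays not yet scaled to each other, per the file headers. A table of log2 values that the authors deposited served only as an alternative. It matched the log2 intensity less the 75th percentile, centred per probe on the slide, except on slide 1 (correlations 0.872 and 0.901), and its column medians ran from -0.0662 to 0.110.

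Outlier spots (73) were dropped, 0 spots were saturated, and a probe's spots were averaged. The log2 signal less the array's 75th percentile was analysed. The filter asked that a probe be well above background on 4 or more arrays within a group (38803 of 43603 probes passed). Accessions of 25978 probes matched the gene table, and the kept probe with the highest mean stood for each of 12787 named genes. For genes of the lectin, mucosal and tissue lists only that probe is given, and other probes of the same gene may differ. All 14 arrays were fitted with limma 3.58.1 (R 4.3.3, lmFit, eBayes), with Benjamini-Hochberg adjustment over kept probes at 0.05, two-sided. Each adjusted p is from that fit, except where another setting is named, and then it is from the limma fit of that setting. The median log2 difference of kept probes was -0.09 at 1x and -0.11 at 0.5x against control. Precision is limited by the number of arrays. The code was tested on simulated data.

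The members, gene lists and tests were chosen with earlier results of these data known. Named genes were all probes of jac10 and jac11, every other measured family gene, the nearest 5 named genes on each side, the 5 genes nearest in profile to each member, up to 4 called genes of each list with the largest log2 difference at 1x, and defining markers. Of the called list genes and the defining markers, not all have their values printed in this text. The mean signal column needed for a normexp correction (offset 50) was not used here, so the median signal took its place. Other alternatives were quantile normalization, another percentile, no filter, the deposited matrix, the mean over probes, slide, scan day or replicate number as a block, single scan days, and arrays left out.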

Additional observations from a re-analysis of the deposited data

Results flagged for a closer look

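Each group of 4 or 5 arrays was checked for 1 array far from the rest, for all probes of the jacalin row and its flanking genes. Of 66 groups checked, 3 had such an array, and chance gives about 1 in 20 groups. None was a group of jac10 or jac11. At 1x, jac7 probe 2 read -6.82 on replicate 4, where the next array read -6.26. At 1x, aep1 probe 3 read -2.61 on replicate 1, where the next array read -3.69. At 0.5x, the probe of zgc:172143, which failed the filter on dim signal, read -7.56 on replicate 1, where the next array read -6.60.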

How the results depend on the processing

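jac10 stayed below control at both concentrations, and lower at 1x than at 0.5x, under all alternatives run. With normexp its log2 difference from control was smaller, -1.90 at 1x and -1.28 at 0.5x. Its log2 difference at 1x against 0.5x was smallest in the deposited matrix, at -0.58 ± 0.24 (SE), and was -0.62 with normexp. With 1 array left out, jac10 ran from -2.68 to -2.44 at 1x, -1.81 to -1.58 at 0.5x and -0.99 to -0.75 at 1x against 0.5x. jac11 probe 3 was not always below control at 1x, with 0.19 in the main fit, 0.36 with quantile normalization and -0.26 with normexp. By probe 1, which stands for the gene here, jac11 stayed below control throughout. Its difference was -0.84 at 1x and -0.83 at 0.5x with normexp, -0.81 at 0.5x within scan day 1 (1 array at 0.5x), and -0.95 at 1x and -1.55 at 0.5x as the mean over its probes. With 1 array left out it ran from -1.70 to -1.16 at 1x and from -1.60 to -1.33 at 0.5x. At 1x against 0.5x jac11 changed sign with normexp (-0.007), in the deposited matrix (-0.13), within scan day 1 (-0.053), within day 2 (-0.10), without 1x replicate 2 (-0.23) and without 0.5x replicate 5 (-0.03), and its highest value was 0.31 without 1x replicate 1. That mean gave 0.60 at 1x against 0.5x. Correlations of same-numbered arrays ran from -0.22 to 0.49. They were not set against those of differently numbered arrays, so whether replicate numbers pair the arrays was not tested. With the replicate block jac10 gave -2.64 and -1.75 and jac11 -1.23 and -1.35 against control at 1x and 0.5x, and no family call changed.

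Family calls at 1x against control numbered 2. They numbered 4 with the slide as a block, 4 within scan day 1, and 1 each within scan day 2, in the deposited matrix and without control replicates 1 and 2 together. With 1 array left out they ran from 1 (leaving out control replicate 1, control replicate 3, or any of 1x replicates 2 to 4) to 5 (leaving out control replicate 4). In the other comparisons there were 0 under all alternatives with more than 1 array in each group. Scan day 1 held 1 array at 0.5x, so its family calls with that group are not given. Its count over all probes at 0.5x against control, listed below, rests on that 1 array, and no conclusion is drawn from it. Over all probes, calls at 1x against control (11147) were 18063 within scan day 1, 1574 within day 2, 4276 without control replicates 1 and 2, and 5939 to 12996 with 1 array left out. Calls at 0.5x against control (3590) were 2034 with normexp, 11653 and 835 within days 1 and 2, 1122 with only the groups compared, 606 without control replicates 1 and 2, and 1111 to 9605 with 1 array left out. Calls at 1x against 0.5x (1581) were 0 in the matrix, 727 with the slide block, 1030 within day 2, 3242 with only the groups compared, 3237 without control replicates 1 and 2, and 709 to 4626 with 1 array left out. The cause of these changes was not tested. normexp moved the median of all probes at 1x against control to -0.20. jac10 has 1 probe, so its mean over probes gives no other value. Signal near background limits jac11 probes 2 and 3. The normexp correction on the median signal, the values within slides and those without control replicates 1 and 2 were chosen after seeing the data.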

Other observations

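Further marker lists showed changes in both directions at 1x against control, where 10.3% of all named genes were called higher and 16.2% lower. Of 15 hepatocyte markers 3 rose and none fell: the fibrinogen chains fgg (log2 difference 1.80 ± 0.50, adjusted p = 0.0181) and fgb (1.16 ± 0.35, adjusted p = 0.0262), and shbg, the sex hormone-binding globulin (1.77 ± 0.33, adjusted p = 0.00306). The mean over this list was -1.85 and -1.03 on control replicates 1 and 2, and 0.12 and 0.60 on control replicates 3 and 4, beside 0.11 to 0.29 at 1x. With those 2 low controls left out, 2 hepatocyte markers were called higher and 2 lower. The higher ones were shbg (0.99, adjusted p = 0.00936) and fgg (0.51, adjusted p = 0.0225), and fgb gave 0.32 (adjusted p = 0.158). In that fit, also used for the lists below, 5.84% of named genes were called higher and 5.54% lower at 1x.

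Of 11 ionocyte markers, genes of the salt-transporting skin cells, 4 rose and 1 fell. The transcription factors foxi3b (0.99 ± 0.22, adjusted p = 0.00681) and foxi3a (0.75 ± 0.19, adjusted p = 0.0136) were among those that rose. So were atp1a1a.2 (0.533 ± 0.185, adjusted p = 0.0438) and slc12a10.2 (0.42 ± 0.11, adjusted p = 0.0131). With the same controls left out foxi3b gave 0.68 (adjusted p = 0.086), foxi3a 0.38 (adjusted p = 0.1) and atp1a1a.2 0.10 (adjusted p = 0.586). There slc12a10.2 stayed called, at 0.50 (adjusted p = 0.03), and 1 ionocyte marker in all was called higher and 1 lower. The enterocyte markers that rose included the apolipoprotein genes apoa4b.2 (1.37 ± 0.35, adjusted p = 0.0134) and apoa1a (0.94 ± 0.24, adjusted p = 0.013). Both calls were lost without those controls (adjusted p = 0.132 and 0.0928). Of 21 epidermis markers 3 rose and 4 fell. The largest changes were anxa1c (-1.10 ± 0.31, adjusted p = 0.0201), anxa1b (0.87 ± 0.27, adjusted p = 0.0292) and ppl (0.62 ± 0.19, adjusted p = 0.0291). The keratin krt4 came next (-0.40 ± 0.12, adjusted p = 0.0271). Without those controls 0 epidermis markers were called higher and 4 lower. There anxa1c gave -1.62 (adjusted p = 0.0133), anxa1b 0.47 (0.274), ppl 0.32 (0.285) and krt4 -0.35 (adjusted p = 0.111).

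Of 13 neutrophil and macrophage markers 1 rose and 1 fell. The granulin gene grna.1 fell by 1.63 ± 0.21 on the log2 scale (adjusted p = 0.000421), and gave -1.94 ± 0.23 without control replicates 1 and 2 (adjusted p = 0.00138). mpeg1.1, a macrophage perforin, rose by 0.59 ± 0.18 (adjusted p = 0.0244) and gave 0.19 without those controls (adjusted p = 0.315). Of 5 hatching gland markers 1 fell, and of 9 notochord markers 1 rose and 1 fell. Without those controls limma called 0 of either list (2 hatching gland markers and 1 notochord marker at an unadjusted p under 0.05).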
